A study of Homo sapiens with 9 samples.

Results

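NRF2, the transcription factor encoded by *NFE2L2*, its inhibitor KEAP1 and 8 antioxidant genes known as NRF2 targets were followed in HepG2 cells, an established human liver cancer line, after knockdown of the long non-coding RNA *TUG1*. The rows were found by gene symbol alone, from a list drawn up with earlier results of these data known. The list named 10 genes, of which 9 have a row in both count tables, among 12854 rows that the tables share: *NFE2L2*, *KEAP1*, *GCLC*, *GCLM*, *SLC7A11*, *TXNRD1*, *SRXN1*, *NQO1* and *HMOX1*. *ME1* was not analysed here.

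The study asked how loss of *TUG1* changes the transcriptome of liver cancer cells. RNA-seq libraries came from 3 stable HepG2 lines, each carrying a lentiviral Tet-pLKO-Puro vector: sh-Con with a control shRNA, labelled WT in genotype, and sh1-*TUG1* and sh2-*TUG1*, each with a different shRNA against *TUG1*. Expression of these shRNAs depends on doxycycline, whose use in the sequenced cells is not given in the sources used here. All 3 groups share the vector and its selection marker, and each group is a single line grown in low-glucose medium. Each group has 3 libraries, which the labels call technical replicates, so the SD and p-values measure the spread between these libraries and not between cultures or lines. *TUG1* itself was not analysed here, so the labels were not checked against the targeted RNA.

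Under resting conditions KEAP1 holds NRF2 in the cytoplasm and hands it to a CUL3 ubiquitin ligase, which leads to its breakdown. Oxidants and electrophiles modify cysteines of KEAP1, NRF2 then collects in the nucleus, pairs with a small MAF protein and binds antioxidant response elements (AREs) near genes of glutathione synthesis, the thioredoxin system, quinone reduction and heme breakdown. Since this control acts on the NRF2 protein, the mRNA of *NFE2L2* is not a measure of NRF2 activity, and no protein was measured here.

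The ARE core is shown because it is the sequence through which NRF2 is known to act on these genes. In RefSeq promoter windows of 300 bases (GRCh38.p14, 250 bases before to 50 after the annotated start), 7 of the 9 genes had at least 1 window, in 10 windows. The letters TGACNNNGC, searched on both strands, were found in 4 of the 10 windows, which belong to 3 genes, *GCLM*, *KEAP1* and *TXNRD1*. The same letters stand in 13.3% of all 35116 RefSeq windows and in 14.6% of the 13859 windows of genes in the tables. Each of the 6 sites is printed 5′ to 3′ on the strand on which the core reads TGACNNNGC, with the core in capitals and 10 bases on either side.

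GCLM, chr1:93909446-93909474, plus strand: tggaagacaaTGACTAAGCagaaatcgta
KEAP1, chr19:10502784-10502812, plus strand: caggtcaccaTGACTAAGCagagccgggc
KEAP1, chr19:10502807-10502835, minus strand: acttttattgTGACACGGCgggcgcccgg
TXNRD1, chr12:104215670-104215698, plus strand: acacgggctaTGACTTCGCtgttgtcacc
TXNRD1, chr12:104215761-104215789, minus strand: ctgtgggaacTGACGGAGCcgaaggacgc
TXNRD1, chr12:104286920-104286948, minus strand: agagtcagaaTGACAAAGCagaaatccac

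The *GCLM* core lies 34 to 26 bases before the start, and the same 9 letters lie 31 to 23 bases before the second annotated start of *KEAP1*. The windows of *GCLC*, *NQO1*, *SRXN1* and *NFE2L2* hold no such core, which says only that these letters are not within this distance of the start. The AP-1 letters TGANTCA, which stand in 7.71% of all windows, and the ATF4 element letters TGATGNAA, in 3.62%, were found in the windows of 0 of the 7 genes.

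The total count per library was 33054291 to 39393293, and liver cell markers (*ALB*, *AFP*, *APOA1*, *APOB*, *TTR*, *SERPINA1*, *FGB*, *HNF4A*) had a row in 8 of 8 cases. Their summed level was 32619 to 34395 CPM (counts relative to library size) in sh-Con, 39748 to 41252 in sh1-*TUG1* and 43507 to 45633 in sh2-*TUG1*. Gene by gene the list did not move one way: 5 rose and 1 fell in sh1-*TUG1*, and 3 rose and 4 fell in sh2-*TUG1*, where *ALB* rose by 0.91 on the log2 scale and *TTR* fell by 0.82. Of 4 fibroblast markers 0 had a row. Of 4 endothelial markers 2 had a row, summing to at most 13.6 CPM in any library, and of 4 blood cell markers only *CD68* had one, at 59.2 to 71.8 CPM in sh-Con, 33.7 to 37.4 in sh1-*TUG1* and 17.6 to 24.0 in sh2-*TUG1*. These summed levels differ between the groups, and their part in the results was not tested. Each group is 1 HepG2 line, and the exons of *CD68* overlap those of AC016876.2 over 1789 bases on the same strand. In bulk RNA, fewer cells of a kind and less RNA per cell cannot be told apart.

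The 2 knockdown lines changed these genes differently. In sh1-*TUG1* 5 of the 9 fell, led by *GCLC* and *HMOX1*, where 12.3% of all rows did, and 0 rose, where 12.5% did. The 5 became 3 without sh-Con replicate 2 or any one sh1-*TUG1* replicate. In sh2-*TUG1* 5 rose, where 21.6% of all rows did, among them *NFE2L2*, *KEAP1* and *GCLM*, and only *NQO1* fell, where 21.9% of all rows did. *NQO1* is the one gene of the 9 that fell in both lines, but its sh1-*TUG1* call held in only 8 of 14 other settings of the fit. No change of a member reached the 1.5-fold criterion of the study. In the paragraphs that follow, CPM are normalized over all 9 libraries, "rose" and "fell" mean an adjusted p under 0.05 in the edgeR quasi-likelihood test over all rows, and log2 fold changes are given with their standard error (SE).

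**Figure D1:**
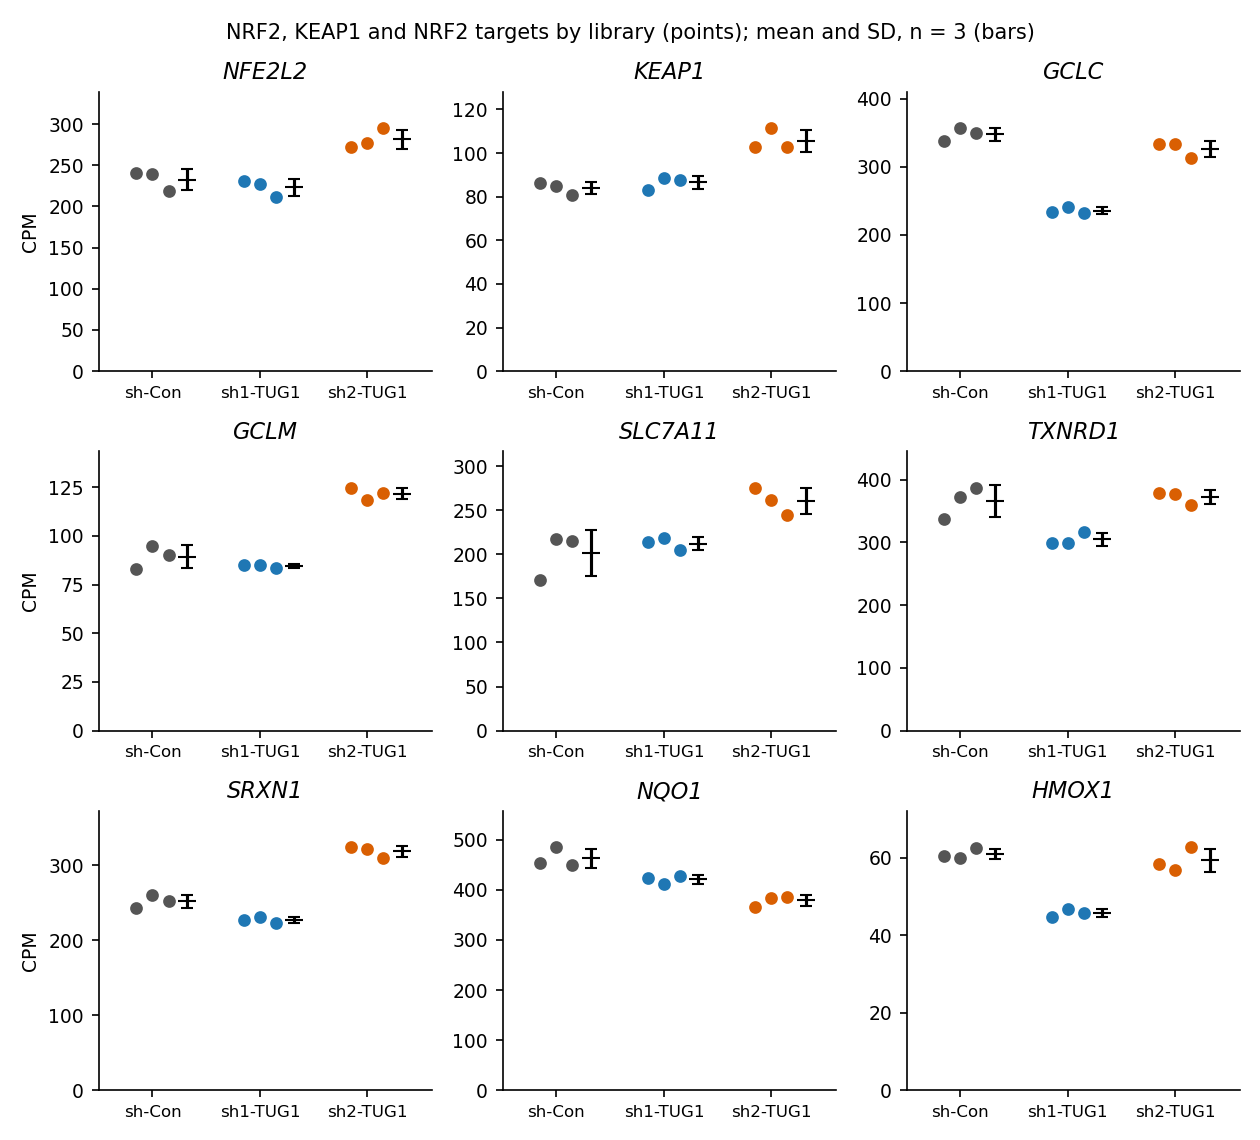
Level of each of the 9 genes in CPM (y axis, from 0) in the 9 libraries, which are points grouped by line, with the mean and SD of 3 libraries as bars. The sh2-TUG1 libraries lie above all others for NFE2L2, KEAP1, GCLM, SLC7A11 and SRXN1, and the sh1-TUG1 libraries lie below all others for GCLC, TXNRD1, SRXN1 and HMOX1.

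*NFE2L2* (chr2:177227595-177392697, minus strand, GRCh38, GENCODE 29, as for all gene spans here) stood at 240.4, 239.6 and 218.3 CPM in the sh-Con libraries, at 230.8, 227.5 and 211.2 in sh1-*TUG1*, and at 272.1, 277.5 and 294.8 in sh2-*TUG1*. All 3 sh2-*TUG1* libraries were above the other 6, while those of sh1-*TUG1* overlapped the control. The log2 fold change in sh1-*TUG1* was −0.06 (SE 0.053, adjusted p = 0.438). In sh2-*TUG1* it was 0.27 (SE 0.054, adjusted p = 0.00319), a rise of 20.7%.

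*KEAP1* (chr19:10486120-10503741, minus strand) is the sensor that keeps NRF2 low. It stood at 86.1, 85.1 and 80.8 CPM in sh-Con, at 83.2, 88.7 and 87.9 in sh1-*TUG1*, and at 102.7, 111.3 and 102.6 in sh2-*TUG1*. As with *NFE2L2*, the sh2-*TUG1* libraries were above all others, and sh1-*TUG1* overlapped the control. *KEAP1* rose by 0.33 on the log2 scale in sh2-*TUG1* (SE 0.055, adjusted p = 0.00121), and the sh1-*TUG1* value was 0.04 (SE 0.051, adjusted p = 0.580).

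The factor and its inhibitor thus moved by like amounts in sh2-*TUG1*. The ratio of *NFE2L2* to *KEAP1*, each in CPM per kb of annotated exon, was 1.74 ± 0.0382 in sh-Con, 1.62 ± 0.117 in sh1-*TUG1* and 1.68 ± 0.120 in sh2-*TUG1* (SD, n = 3). These ranges overlap between all groups, with a two-sided exact permutation p of 0.2 for sh1-*TUG1* and 0.6 for sh2-*TUG1* against sh-Con. Of 3 libraries against 3, this test can give no p below 0.1.

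Among 12 other genes that act on NRF2, 8 rose and 0 fell in sh2-*TUG1*, and 1 rose and 2 fell in sh1-*TUG1*. Of all rows 21.6% rose and 21.9% fell in sh2-*TUG1*, and 12.5% and 12.3% in sh1-*TUG1*, where the regulators' counts are near that background. The genes of the small MAF proteins, without which NRF2 does not bind the ARE, had the 3 largest log2 fold changes of this list in sh2-*TUG1*. *MAFK* stood at 79.1, 80.0 and 84.9 CPM in sh-Con, at 70.8, 75.7 and 69.3 in sh1-*TUG1*, and at 121.3, 124.6 and 116.1 in sh2-*TUG1*, so the 3 groups did not overlap. It fell by 0.18 on the log2 scale in sh1-*TUG1* (SE 0.056, adjusted p = 0.0433) and rose by 0.57 in sh2-*TUG1* (SE 0.054, adjusted p = 4.28e-05).

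*MAFF* moved the same way, with 51.5 ± 1.70 CPM in sh-Con, 43.5 ± 1.23 in sh1-*TUG1* and 69.2 ± 3.28 in sh2-*TUG1* (SD, n = 3). *MAFF* fell by 0.24 on the log2 scale in sh1-*TUG1* (SE 0.053, adjusted p = 0.00924) and rose by 0.42 in sh2-*TUG1* (SE 0.059, adjusted p = 0.000396). *MAFG* rose by 0.54 in sh2-*TUG1* (SE 0.056, adjusted p = 6.85e-05). For sh1-*TUG1* the fitted value was 0.14 (SE 0.050, adjusted p = 0.0674), and its libraries were above those of sh-Con.

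*SQSTM1*, which encodes the autophagy receptor p62 that draws KEAP1 away from NRF2, stood at 943 ± 19.8 CPM in sh-Con, 888 ± 15.9 in sh1-*TUG1* and 1130 ± 17.8 in sh2-*TUG1* (SD, n = 3). It rose by 0.26 on the log2 scale in sh2-*TUG1* (SE 0.040, adjusted p = 0.000747). *CUL3*, the scaffold of the ligase, rose by 0.19 there (SE 0.065, adjusted p = 0.0353). *RBX1*, its RING subunit, had a log2 fold change of −0.05 in sh2-*TUG1* (adjusted p = 0.719). *BACH1*, the repressor that competes with NRF2 for the ARE, had 0.20 (SE 0.106, adjusted p = 0.157).

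Glutathione synthesis starts with cystine uptake and with glutamate-cysteine ligase. *SLC7A11* (chr4:138164097-138242349, minus strand) encodes the cystine carrier of the system xc- exchanger. It stood at 171.1, 217.0 and 215.6 CPM in sh-Con, at 214.1, 218.0 and 204.6 in sh1-*TUG1*, and at 275.3, 261.2 and 244.9 in sh2-*TUG1*. The first sh-Con library is low beside the other 2, and all sh2-*TUG1* libraries are above the other groups. *SLC7A11* rose by 0.37 on the log2 scale in sh2-*TUG1* (SE 0.089, adjusted p = 0.00852). In sh1-*TUG1* the value was 0.08 (SE 0.084, adjusted p = 0.558), which turned to −0.03 without the first sh-Con library.

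*GCLC* (chr6:53497341-53616970, minus strand), the catalytic subunit of glutamate-cysteine ligase, showed the largest decrease of the 9 genes. The sh-Con libraries held 337.6, 356.1 and 348.7 CPM, the sh1-*TUG1* libraries 233.7, 241.0 and 231.7, and the sh2-*TUG1* libraries 332.6, 332.7 and 312.2. The sh1-*TUG1* libraries were far below both other groups, and the sh2-*TUG1* libraries lay just under the control without overlap. *GCLC* fell by 32.3% in sh1-*TUG1*, a log2 fold change of −0.56 (SE 0.041, adjusted p = 1.88e-05). The sh2-*TUG1* value was −0.10 on the log2 scale (SE 0.047, adjusted p = 0.129). With library size alone in place of TMM factors it was −0.13 (adjusted p = 0.0480).

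*GCLM* (chr1:93885205-93909456, minus strand), the modifier subunit of the same enzyme, was changed in the other line. It stood at 83.0, 94.7 and 90.0 CPM in sh-Con, at 85.2, 85.3 and 83.4 in sh1-*TUG1*, and at 124.7, 118.7 and 121.9 in sh2-*TUG1*. The sh2-*TUG1* libraries were above all others, and the sh1-*TUG1* libraries lay within the control range. *GCLM* rose by 36.2% in sh2-*TUG1*, a log2 fold change of 0.45 (SE 0.060, adjusted p = 0.000330). In sh1-*TUG1* the log2 fold change was −0.08 (SE 0.058, adjusted p = 0.367), and without the first sh-Con library it was −0.13 (adjusted p = 0.0492).

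The 2 subunits form one enzyme, so their ratio within each library was set side by side. In CPM per kb of exon, *GCLC* to *GCLM* was 2.45 ± 0.0981 in sh-Con, 1.74 ± 0.0254 in sh1-*TUG1* and 1.68 ± 0.0763 in sh2-*TUG1* (SD, n = 3). The control libraries ranged from 2.36 to 2.55 and no knockdown library was above 1.77. The log2 difference from sh-Con was −0.49 for sh1-*TUG1* and −0.54 for sh2-*TUG1*, each with a two-sided exact permutation p of 0.1, the smallest this design allows. Between the knockdown lines the difference was −0.056 (exact permutation p = 0.3). The ratio was thus lower in both lines, in sh1-*TUG1* beside a lower *GCLC* and in sh2-*TUG1* beside a higher *GCLM*.

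**Figure D2:**
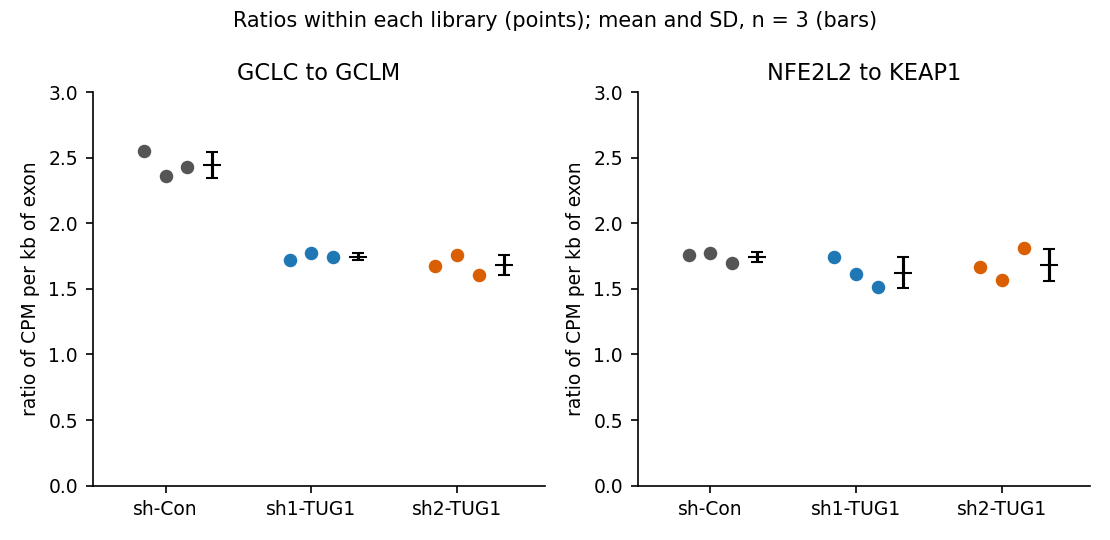
Ratio of GCLC to GCLM (left) and of NFE2L2 to KEAP1 (right), in CPM per kb of exon (y axis, from 0), within each of the 9 libraries (points), with the mean and SD of 3 libraries (bars). The GCLC to GCLM ratio lies between 2.36 and 2.55 in sh-Con and at or below 1.77 in every knockdown library, while the NFE2L2 to KEAP1 ratio overlaps between the groups.

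The thioredoxin system was represented by *TXNRD1* and *SRXN1*. *TXNRD1* (chr12:104215779-104350305, plus strand) encodes cytosolic thioredoxin reductase, which returns oxidized thioredoxin to its reduced form with NADPH. It stood at 337.7, 372.7 and 386.7 CPM in sh-Con, at 299.4, 298.9 and 316.3 in sh1-*TUG1*, and at 379.3, 377.4 and 359.4 in sh2-*TUG1*. The sh1-*TUG1* libraries were below all others, and those of sh2-*TUG1* lay within the control range. *TXNRD1* fell by 0.26 on the log2 scale in sh1-*TUG1* (SE 0.056, adjusted p = 0.00798). In sh2-*TUG1* the value was 0.02 (SE 0.058, adjusted p = 0.786), and its sign turned with library size alone or without the first sh-Con library.

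*SRXN1* (chr20:646615-653370, minus strand) encodes sulfiredoxin, which repairs overoxidized peroxiredoxins. It stood at 243.1, 260.7 and 251.5 CPM in sh-Con, at 227.5, 231.0 and 222.4 in sh1-*TUG1*, and at 323.6, 321.7 and 309.2 in sh2-*TUG1*. The 3 groups did not overlap, with the control between the 2 knockdown lines. *SRXN1* rose by 26.1% in sh2-*TUG1*, a log2 fold change of 0.33 (SE 0.047, adjusted p = 0.000424). It fell by 0.15 in sh1-*TUG1* (SE 0.043, adjusted p = 0.0301). That decrease was no longer called with library size alone (adjusted p = 0.0678), nor without sh-Con replicate 2 or 3 or any one sh1-*TUG1* replicate (adjusted p up to 0.116).

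*NQO1* (chr16:69706996-69726951, minus strand), a quinone reductase widely used as a marker of NRF2 activity, was lower in both lines. The sh-Con libraries held 454.4, 484.8 and 449.0 CPM, those of sh1-*TUG1* 424.3, 411.4 and 427.3, and those of sh2-*TUG1* 366.1, 384.4 and 386.3. The groups did not overlap, with sh2-*TUG1* lowest. *NQO1* fell by 18.3% in sh2-*TUG1*, a log2 fold change of −0.29 (SE 0.048, adjusted p = 0.00115). In sh1-*TUG1* it fell by 0.14 (SE 0.043, adjusted p = 0.0438). This call was lost with library size alone (adjusted p = 0.0951), and without sh-Con replicate 2 or any one sh1-*TUG1* replicate (adjusted p up to 0.165).

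*HMOX1* (chr22:35380361-35394214, plus strand) encodes heme oxygenase-1, which breaks heme down to biliverdin, iron and carbon monoxide and is also repressed by BACH1. It stood at 60.4, 60.0 and 62.6 CPM in sh-Con, at 44.8, 46.9 and 45.7 in sh1-*TUG1*, and at 58.4, 56.9 and 62.7 in sh2-*TUG1*. The sh1-*TUG1* libraries were below all others, and sh2-*TUG1* overlapped the control. *HMOX1* fell by 25.0% in sh1-*TUG1*, a log2 fold change of −0.41 (SE 0.051, adjusted p = 0.000418). The sh2-*TUG1* value was −0.04 on the log2 scale (SE 0.058, adjusted p = 0.587).

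Reads could be shared at some of these loci. The exons of *SRXN1* overlap those of AL121758.1 over 2292 bases, those of *NFE2L2* overlap AC019080.1 over 1054 bases, and those of *GCLC* overlap AL033397.1 over 529 bases, all on the same strand, where a strand setting cannot separate them. *SLC7A11* and *NQO1* overlap antisense genes over 865 and 575 exon bases, and the sources used here do not say whether counting used strand. Of the regulators, *SQSTM1* overlaps *MRNIP* over 1582 exon bases and *MAFK* overlaps *TMEM184A* over 809, both on the opposite strand. How much these pairs add to the values was not tested.

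Levels of different genes can be set side by side only per length. The length used merges all annotated exons of a gene, expressed or not, so the order of genes may depend on it. In sh-Con, *NQO1* was highest at 142 ± 5.93 CPM per kb of exon, followed by *SRXN1* at 93.3 ± 3.26 and *TXNRD1* at 54.5 ± 3.76 (SD, n = 3). *GCLC* at 40.2 ± 1.08 and *NFE2L2* at 38.9 ± 2.10 did not differ beyond their spread. *HMOX1* at 25.4 ± 0.583 was followed by *KEAP1* at 22.3 ± 0.742 and *SLC7A11* at 20.9 ± 2.71, which did not differ beyond their spread, and by *GCLM* at 16.5 ± 1.09.

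The order changed in the knockdown lines. In sh1-*TUG1* *GCLC* was at 27.2 ± 0.567, below *NFE2L2* at 37.3 ± 1.75 CPM per kb, and *HMOX1* at 19.0 ± 0.433 was below *SLC7A11* at 22.0 ± 0.715. In sh2-*TUG1* *SRXN1* at 118 ± 2.90 and *NQO1* at 116 ± 3.44 did not differ beyond their spread. There *GCLC* at 37.7 ± 1.37 was below *NFE2L2* at 47.1 ± 1.98 (SD, n = 3).

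In sh1-*TUG1* against sh-Con, 0 of the 9 genes rose, where 12.5% of all 13017 rows did, and 5 fell, where 12.3% of all rows did. The genes that fell were *GCLC*, *HMOX1*, *TXNRD1*, *SRXN1* and *NQO1*, and the median log2 fold change of the 9 was −0.14 against 0.0027 over all rows. Their number was 3 without sh-Con replicate 2, without any one sh1-*TUG1* replicate or with library size alone. None was a DEG (fold change over 1.5 and adjusted p under 0.05), where 4.96% of all rows were, and the largest change, that of *GCLC*, was to 0.677 of the control level.

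In sh2-*TUG1* against sh-Con, 5 of the 9 genes rose, where 21.6% of all 12953 rows did, and 1 fell, where 21.9% did. The rising genes were *GCLM*, *SLC7A11*, *SRXN1*, *KEAP1* and *NFE2L2*, and the median log2 fold change of the 9 was 0.27 against −0.0048 over all rows. DEGs were 0 of the 9, where 13.3% of all rows were DEGs. The 3 sh-Con libraries are shared by both of these comparisons.

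The direct test between the knockdown lines, fitted with the control libraries included, separated the lines at each of the 9 genes. sh2-*TUG1* was higher than sh1-*TUG1* at 8, where 21.0% of 12854 rows were higher, and lower at 1, *NQO1*, where 21.7% were. The sh1-*TUG1* and sh2-*TUG1* libraries did not overlap at any of the 9 genes. The share of all rows without such overlap is not given here, so this count has no background to be read against. With library size alone the background split moved from 2702 higher and 2786 lower rows to 1912 and 3532, and the members' counts stayed at 8 and 1.

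The differences between the lines were largest for *GCLM* at a log2 fold change of 0.52 (SE 0.052, adjusted p = 1.23e-05) and *SRXN1* at 0.49 (SE 0.040, adjusted p = 3.13e-06). *GCLC* followed at 0.47 (SE 0.041, adjusted p = 4.58e-06), and *NQO1* stood at −0.15 (SE 0.042, adjusted p = 0.0120). The *NQO1* call was lost without sh2-*TUG1* replicate 1 (adjusted p = 0.0565). None of the 9 was a DEG between the lines, where 10.6% of all rows were. *MAFK* and *MAFF*, both higher in sh2-*TUG1* by 0.75 (SE 0.052) and 0.67 (SE 0.054), were DEGs there.

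**Figure D3:**
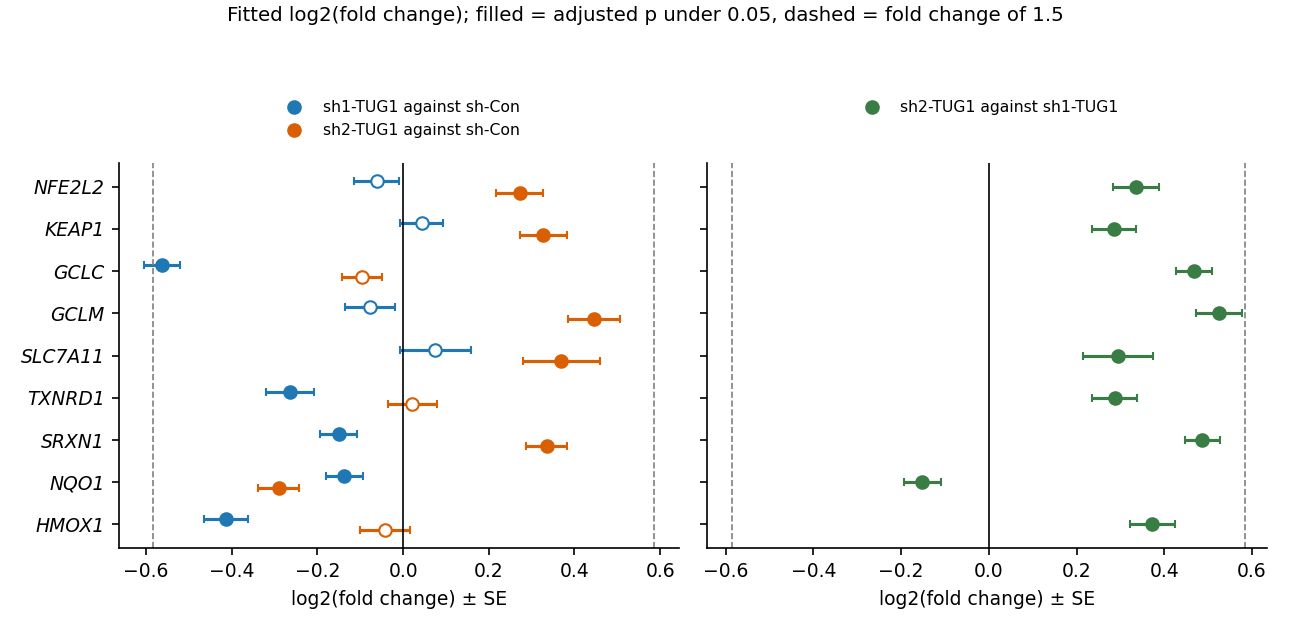
Fitted log2 fold change with its SE (x axis) for the 9 genes (rows), for each knockdown line against sh-Con (left) and for sh2-TUG1 against sh1-TUG1 (right). Filled points have an adjusted p under 0.05 and dashed lines mark a fold change of 1.5. All points lie inside these lines, and on the right 8 of 9 lie above 0 and NQO1 below it.

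A wider set of NRF2 targets held calls in both directions in both lines. Of 41 further genes known as NRF2 targets, 37 were tested, of which 7 rose and 7 fell in sh1-*TUG1*, and 8 rose and 12 fell in sh2-*TUG1*. Of all rows 12.5% rose and 12.3% fell in sh1-*TUG1*, and 21.6% rose and 21.9% fell in sh2-*TUG1*, and these shares are the background for the smaller lists below as well. The share of targets rising in sh2-*TUG1* was no higher than that of all rows. Their median log2 fold change was −0.0052 and −0.049. In sh2-*TUG1* 5 were higher DEGs (*AKR1B1*, *AKR1C1*, *AKR1C2*, *AKR1C3*, *GPX2*) and 3 lower DEGs (*GSTA1*, *GSTA4*, *ABCC3*). Of all 12953 rows, 564 were higher and 1162 lower DEGs in that line.

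Of 8 quinone and carbonyl reducing targets tested, 4 rose and 1 fell in sh1-*TUG1*, and 5 rose and 0 fell in sh2-*TUG1*. The background was 12.5% and 12.3% of all rows in sh1-*TUG1* and 21.6% and 21.9% in sh2-*TUG1*. The gene that fell was *AKR1B10*, by 0.26 on the log2 scale in sh1-*TUG1* (SE 0.041, adjusted p = 0.00178). In sh2-*TUG1* *AKR1B10* had 0.0064 (SE 0.045, adjusted p = 0.923). *AKR1B1*, the aldose reductase that turns glucose to sorbitol, stood at 48.7, 47.6 and 49.9 CPM in sh-Con, at 93.7, 90.9 and 99.1 in sh1-*TUG1*, and at 204.0, 200.2 and 185.8 in sh2-*TUG1*. No group overlapped another. It rose by 0.96 on the log2 scale in sh1-*TUG1* (SE 0.054, adjusted p = 3.74e-06) and by 2.01 in sh2-*TUG1* (SE 0.055, adjusted p = 5.68e-08).

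The ketosteroid reductases *AKR1C1*, *AKR1C2* and *AKR1C3* rose by 1.18, 1.10 and 0.60 on the log2 scale in sh2-*TUG1* (adjusted p at most 0.000154). In sh1-*TUG1* *AKR1C1* rose by 0.42 (SE 0.047, adjusted p = 0.000222) and *AKR1C2* by 0.13 (adjusted p = 0.0496), while *AKR1C3* had 0.13 (adjusted p = 0.219). These genes are close copies, so reads may be split between them and the values of each are uncertain.

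Of 11 glutathione-linked targets tested, 5 fell in sh1-*TUG1*, where 12.3% of all rows did, and 8 fell in sh2-*TUG1*, where 21.9% did. In the other direction 2 rose in sh1-*TUG1* and 1 in sh2-*TUG1*, beside 12.5% and 21.6% of all rows. *ABCC3*, an exporter of bile acid conjugates, fell from 129.6 ± 14.5 CPM in sh-Con to 91.2 ± 1.46 in sh1-*TUG1* and 60.5 ± 0.999 in sh2-*TUG1* (SD, n = 3). Its log2 fold changes were −0.51 (SE 0.072, adjusted p = 0.000932) and −1.10 (SE 0.076, adjusted p = 6.09e-06).

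The glutathione transferases *GSTA1* and *GSTA4* fell by 1.30 (SE 0.184) and 0.93 (SE 0.135) on the log2 scale in sh2-*TUG1*. In sh1-*TUG1* their log2 fold changes were 0.09 (adjusted p = 0.730) and −0.01 (adjusted p = 0.945). *GSTA1* held 81 to 317 counts per library, and it has close copies. *GPX2*, a glutathione peroxidase, rose by 0.76 (SE 0.054) in sh1-*TUG1* and by 1.01 (SE 0.064) in sh2-*TUG1*.

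The remaining lists are too short for their counts to be read against the background shares. Of 6 iron and heme genes, 1 fell in sh1-*TUG1* and 2 in sh2-*TUG1*, with none rising. Of 5 genes that supply NADPH, 1 rose in sh1-*TUG1* and 0 were called in sh2-*TUG1*. Of 3 further thioredoxin genes 0 were called in sh1-*TUG1*, and 1 rose and 1 fell in sh2-*TUG1*. Of the remaining 4 targets, 0 were called in sh1-*TUG1*, and 1 rose and 1 fell in sh2-*TUG1*.

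**Figure D4:**
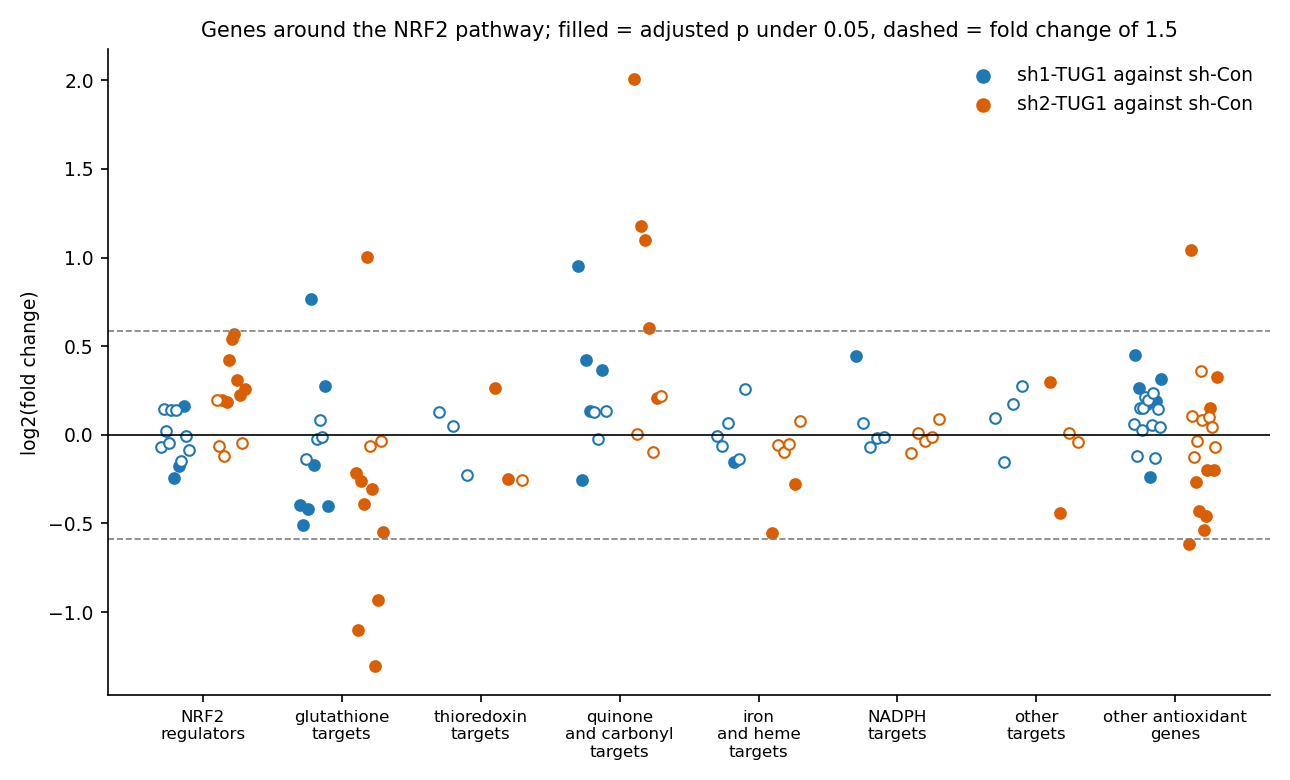
Fitted log2 fold change against sh-Con (y axis) of the genes around the pathway, each a point, by list (x axis) and by knockdown line (colour). Filled points have an adjusted p under 0.05 and dashed lines mark a fold change of 1.5. The regulators of sh2-TUG1 that are filled all lie above 0, and glutathione targets reach from −1.30 to 1.01 in that line.

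Antioxidant genes that are not classed here as NRF2 targets were counted for comparison. Of 18 tested, 5 rose and 1 fell in sh1-*TUG1*, and 3 rose and 7 fell in sh2-*TUG1*. In all rows these shares were 12.5% and 12.3% in sh1-*TUG1* and 21.6% and 21.9% in sh2-*TUG1*, so the falling genes of sh1-*TUG1* and the rising ones of sh2-*TUG1* were not above the background. *GLRX2*, the mitochondrial glutaredoxin, rose by 0.45 (SE 0.106, adjusted p = 0.0128) and by 1.04 (SE 0.105, adjusted p = 5.79e-05). *CAT*, which encodes catalase, fell from 50.2 ± 3.81 CPM in sh-Con to 32.8 ± 1.43 in sh2-*TUG1* (SD, n = 3), a log2 fold change of −0.62 (SE 0.069, adjusted p = 0.000117). In sh1-*TUG1* it had 0.06 (adjusted p = 0.564). *MSRB2*, a mitochondrial methionine sulfoxide reductase, fell by 0.54 in sh2-*TUG1* (SE 0.127, adjusted p = 0.00744) and had 0.20 in sh1-*TUG1* (adjusted p = 0.237).

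*SLC7A11* is also known as a target of ATF4, the factor of the amino acid and stress response. Of its list, 3 rose and 3 fell of 11 tested in sh1-*TUG1*, and 5 rose and 3 fell of 12 in sh2-*TUG1*. All rows gave 12.5% and 12.3% in sh1-*TUG1* and 21.6% and 21.9% in sh2-*TUG1*, and the falling genes of sh2-*TUG1* are near that share. *SLC3A2*, the heavy chain that carries the SLC7A11 protein to the membrane, rose from 999 ± 54.3 CPM in sh-Con to 1225 ± 27.4 in sh1-*TUG1* and 1842 ± 127 in sh2-*TUG1* (SD, n = 3). Its log2 fold changes were 0.29 (SE 0.047, adjusted p = 0.00188) and 0.88 (SE 0.062, adjusted p = 6.56e-06). *ATF3*, a stress-induced repressor, fell by 0.22 in sh1-*TUG1* (SE 0.065) and rose by 0.56 in sh2-*TUG1* (SE 0.072). *DDIT4*, an inhibitor of mTORC1, fell by 0.58 (SE 0.042) and 0.74 (SE 0.061) on the log2 scale.

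Likeness of pattern was measured as Pearson's r of log2 CPM over the 9 libraries, among 11512 genes, as a description. The libraries lie in 3 groups of 3, so r follows the group means. The genes most like *NFE2L2* were *ZNF638* (r = 0.996), *SH3D19* (r = 0.993) and *CSNK2A1* (r = 0.985). Those most like *NQO1* were *NUDT3* (r = 0.986), *GTF2H2* (r = 0.981) and *SLC51A* (r = 0.980). Within the set, *GCLM* and *SRXN1* were most alike (r = 0.976), followed by *GCLC* and *HMOX1* (r = 0.952), while *NFE2L2* and *NQO1* had r = −0.66.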

How the data were processed

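mRNA of HepG2 cells was sequenced in 9 libraries, with 3 libraries for each of the control and both knockdown lines. The authors deposited 1 table per knockdown line with raw read counts per gene, which are not normalized, together with FPKM values that the authors computed, which entered no test. The tables also hold the false discovery rates and log2 fold changes of the authors' own comparison, which were not used. The submitters' processing notes name HISAT2, StringTie and GRCh38, and the counting tool is not given in the sources used here.

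All rows were tested, 13017 and 12953, of which 1087 and 1082 are loci without a gene identifier (1.46% and 1.41% of counts). Knockdown and control libraries of a table (6 libraries) were compared with edgeR 4.0.16 in R 4.3.3 (TMM, quasi-likelihood test, Benjamini–Hochberg adjustment over all rows), and the lines against each other over 12854 shared rows and 9 libraries. The test was first run on simulated data. Libraries of 1 group differed by more than read sampling (chi-squared per degree of freedom 6.41 to 25.8). CPM were TMM-normalized over 9 libraries, so their ratios differ slightly from fitted fold changes, and the SD is over 3 libraries. The SE of a log2 fold change was taken as its absolute value divided by the square root of the quasi-likelihood F statistic.

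Members were named with values. Other genes of the lists were named where they were DEGs in a comparison or among 7 partners in NRF2 control (*CUL3*, *RBX1*, *MAFF*, *MAFG*, *MAFK*, *BACH1*, *SQSTM1*). *ALB*, *TTR* and *AKR1B10* were named after their values were seen. Members and lists were chosen with earlier results of these data known. Gene spans and exon lengths are from GENCODE 29, and exon length merges the exons of all annotated transcripts of a gene. The size of a ratio between 2 genes therefore depends on the annotation. *SOD2* has 2 rows and was left out of its list. Alternatives were RLE factors, library size alone, 2 filters on low counts, rows with an Ensembl identifier alone, DESeq2 1.42.0, other sets of libraries in the fit, a replicate block, glmTreat against a fold change of 1.5 and leaving out each library in turn.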

Additional observations from a re-analysis of the deposited data

Results flagged for a closer look

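The test of sh2-*TUG1* against sh1-*TUG1* called each of the 9 genes, so their change from sh-Con differed between the lines by a direct test. Of all 12854 rows that test called 21.0% higher and 21.7% lower, so differences between the lines were common. Of the 37 wider targets tested it called 8 higher and 10 lower. The log2 fold change of sh2-*TUG1* against sh1-*TUG1* was 0.52 for *GCLM*, 0.49 for *SRXN1*, 0.47 for *GCLC* and 0.37 for *HMOX1*. It was 0.33 for *NFE2L2*, 0.30 for *SLC7A11*, 0.29 for *TXNRD1*, 0.29 for *KEAP1* and −0.15 for *NQO1*. For *GCLC*, *HMOX1* and *TXNRD1* the difference lay with a decrease called in sh1-*TUG1*, and for *GCLM*, *SLC7A11*, *KEAP1* and *NFE2L2* with an increase called in sh2-*TUG1*. *SRXN1* was called in both lines in opposite directions. Each line carries its own shRNA, so shRNA, line and depth of knockdown cannot be told apart. Depth of knockdown was not measured here, and the paper reports a comparable efficiency of both shRNAs by qRT-PCR.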

How the results depend on the processing

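Each group is 1 line with 3 technical replicates, so effects of line and of *TUG1* knockdown cannot be told apart. The counts of members and of wider targets called in each direction stayed within 1.5 times of those reported with RLE factors, both filters on low counts, Ensembl rows alone, DESeq2, other sets of libraries in the fit and the replicate block. Library size alone gave 3 falling members in sh1-*TUG1*, 2 in sh2-*TUG1*, and −0.014 for *TXNRD1* in sh2-*TUG1*. Same-numbered libraries did not deviate together (r −0.288 to 0.0186 over 12423 genes), and the main fits did not pair them. Deviations from a mean of 3 libraries are not independent, so these values cannot decide whether same-numbered libraries share a preparation. With the replicate block *NQO1* in sh1-*TUG1* stood at −0.14 (adjusted p = 0.0734), and no other member's call changed.

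Against a fold change of 1.5 the test called 0 members in any direction, in sh1-*TUG1* (0 higher, 0 lower), in sh2-*TUG1* (0 higher, 0 lower) and in sh2-*TUG1* against sh1-*TUG1* (0 higher, 0 lower). Of the 37 wider targets tested it called 1 higher and 0 lower in sh1-*TUG1*, and 4 higher and 2 lower in sh2-*TUG1*. Between the lines it called 3 higher and 1 lower. Over all rows the same test called 45 higher and 69 lower of 13017 in sh1-*TUG1*. It called 201 and 399 of 12953 in sh2-*TUG1*, and 67 and 263 of 12854 between the lines. Leaving out 1 library gave 3 to 6 falling members in sh1-*TUG1* and 0 to 1 between the lines. It gave −0.034 to 0.13 for *SLC7A11* in sh1-*TUG1* and −0.033 to 0.065 for *TXNRD1* in sh2-*TUG1*.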
